A study of Mus musculus with 13 samples.

Results

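The genes described here were 10 members of the regulator of G protein signaling (RGS) family: Rgs2, Rgs4, Rgs5, Rgs6, Rgs7, Rgs8, Rgs10, Rgs12, Rgs14 and Rgs17. They were taken by name from single-cell RNA sequencing of the mouse claustrum, and all 10 had a row in both deposited count tables, which together list 23427 genes. A further 11 RGS genes of the tables served as a list of their own. Levels were compared in 1011 excitatory neurons, the cells with at least 1 count of Snap25, a gene of all neurons, and of Slc17a7, the vesicular glutamate transporter of most forebrain excitatory neurons.

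The neurons came from 4 mature male C57BL/6 mice on 13 plates and had been picked by hand from microdissected claustrum. In 1 mouse (238 neurons), a retrograde virus carrying GFP had been placed in the anterior cingulate cortex to guide the dissection, and cells were picked without regard to it. In the other 3 (224, 220 and 329 neurons, called projection mice 1 to 3), green retrobeads had been placed in the lateral entorhinal cortex (LEC) and red retrobeads in the retrosplenial cortex (RSC), and 286 LEC-labelled, 247 RSC-labelled and 240 unlabelled neurons were kept. Retrobeads mark the neurons whose axons took them up, so an unlabelled neuron may still project to either area. No genotype other than C57BL/6 was used, and the labels gave no age in days.

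G protein-coupled receptors act by loading GTP onto G protein alpha subunits, and the signal ends when the alpha subunit hydrolyses that GTP. RGS proteins bind the active alpha subunit and speed this hydrolysis, so they set how long a receptor's signal lasts. In the brain different members act on different alpha subunits and are used by different neurons, and Rgs2 and Rgs4 are known to respond to activity and neuromodulators. The family is divided by sequence: Rgs2, Rgs4, Rgs5 and Rgs8 belong to the R4 subfamily of small proteins, Rgs6 and Rgs7 to the R7 subfamily, Rgs10, Rgs12 and Rgs14 to the R12 subfamily, and Rgs17 to the RZ subfamily.

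Every comparison below was made on counts summed over the neurons of a mouse in a group, since mice and not neurons are the replicates. Levels are CPM, the counts of a gene per 1e+06 counts of its sum, after TMM scaling, and since tags mark the 3′ end of transcripts they are compared between groups for a gene and not between genes. Differences are log2 fold changes from edgeR's quasi-likelihood F test with their standard error (SE), and a gene is said to pass, rise or fall where its Benjamini-Hochberg adjusted p over all genes tested was under 0.05. Whether levels of groups overlap is given as a description only, and the share of all genes without overlap was not counted. The main split was by Synpr, the gene of synaptoporin, a protein of synaptic vesicles, which marks a large class of claustrum neurons: 438 neurons had a Synpr level of at least 200 CPM (Synpr-high) and 573 a lower one (Synpr-low). Only 21 neurons, 2.08% of all, lay between 100 and 400 CPM.

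The groups were described with marker genes. The study picked Gfra1, Slc30a3, Nnat and Spon1 from these same neurons, so their separation is not independent evidence. Lxn and Gnb4 are claustrum markers in the paper, which found Gnb4 enriched in both its claustrum clusters over the cortical one. Summed over Gnb4, Lxn, Slc17a6, Gfra1 and Nr4a2, used here as core claustrum markers, the level was 4322 to 4766 CPM per mouse in Synpr-high and 321 to 713 CPM in Synpr-low neurons. The shell claustrum markers Slc30a3, Nnat and Spon1 summed to 51.4 to 102.7 CPM and 667 to 1809 CPM, and 7 layer 6 genes to 14.9 to 27.9 CPM and 119 to 262 CPM. Sums of 5 mural cell, 6 microglia, 3 endothelial and 5 astrocyte markers stayed under 10 CPM in every group of the Synpr and label comparisons, while 5 oligodendrocyte markers summed to 27.4 to 889 CPM and 5 inhibitory neuron markers to 0 to 200.2 CPM. Median counts per neuron were 26023 in the mouse picked without labels and 138535 to 154262 in the projection mice, so its values for low genes rest on fewer counts. The study's methods give 3 plates another type of flowcell and longer reads than the rest, without naming them. This mouse had 3 plates and a count table of its own. If those are its plates, sequencing run and read length cannot be told apart from the mouse. The tables shared 231 well barcodes, which are reused from plate to plate, and no cell name.

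The 250 bases before the annotated start of the members that passed a test are given here because the groups below differ in the RNA made from these starts or from others of the same gene. The sequences are from RefSeq (build GRCm38.p6), read 5′ to 3′ on the strand of the gene. Capitals mark TGACG, the core of the cAMP response element (CRE), or CGTCA, the same letters on the other strand. Rgs12 has a pair of annotated starts in the table, and the deposited gene counts do not separate them.

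Rgs12, upstream start, chr5:34949198-34949447, plus strand: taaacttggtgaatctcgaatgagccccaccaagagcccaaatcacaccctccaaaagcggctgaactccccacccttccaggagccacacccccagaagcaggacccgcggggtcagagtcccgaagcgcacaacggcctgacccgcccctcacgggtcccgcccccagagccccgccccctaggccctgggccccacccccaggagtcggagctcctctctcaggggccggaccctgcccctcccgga
Rgs12, downstream start, chr5:34998828-34999077, plus strand: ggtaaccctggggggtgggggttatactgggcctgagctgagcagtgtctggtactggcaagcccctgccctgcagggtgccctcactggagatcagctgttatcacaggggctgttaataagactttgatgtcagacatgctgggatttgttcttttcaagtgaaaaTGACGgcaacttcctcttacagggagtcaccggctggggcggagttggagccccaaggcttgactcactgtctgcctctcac
Rgs2, chr1:144004150-144004399, minus strand: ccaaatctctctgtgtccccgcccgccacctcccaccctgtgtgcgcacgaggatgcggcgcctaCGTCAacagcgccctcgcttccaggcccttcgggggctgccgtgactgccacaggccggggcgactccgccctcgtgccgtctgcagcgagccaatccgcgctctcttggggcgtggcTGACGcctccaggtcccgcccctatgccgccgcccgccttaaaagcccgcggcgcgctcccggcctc
Rgs6, chr12:82617249-82617498, plus strand: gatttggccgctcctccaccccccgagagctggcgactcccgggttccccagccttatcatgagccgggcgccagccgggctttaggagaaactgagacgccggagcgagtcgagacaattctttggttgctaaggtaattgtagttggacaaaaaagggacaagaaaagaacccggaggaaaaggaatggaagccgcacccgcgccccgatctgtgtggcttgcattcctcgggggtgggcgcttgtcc

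The CRE core was present at positions -185 and -67 of Rgs2 and at position -82 of the downstream Rgs12 start, counted from the start site, and not in the windows of the upstream Rgs12 start or of Rgs6. The same core was at -236 and -141 of Rgs4 and at -46 of an Rgs8 start, members that passed in no comparison. It occurred in 17.8% of the 32851 promoter windows of the same length in the table. The complete CRE, TGACGTCA, which contains the core on both strands, was in 1.55% of all windows and in none of the 12 windows found for 9 of the members. The table held no entry for Rgs14.

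The first comparison asked which members differ between Synpr-high and Synpr-low neurons. Rgs12 was higher and Rgs6 lower in Synpr-high neurons, and both passed. Of all 13640 genes tested, 8.81% passed in this comparison, and 2 of the 10 members did. The median log2 fold change was -0.45 over the members and -0.00067 over all genes tested. With the mouse as a block in the fit, 14.6% of all genes and 6 of the 10 members passed.

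Rgs12 encodes the largest member described here, a scaffold with a PDZ domain, Ras-binding domains and a GoLoco motif beside its RGS domain. Its level in Synpr-high neurons was 731 CPM in the mouse picked without labels and 1024, 948 and 955 CPM in projection mice 1 to 3, against 144, 80.3, 127 and 96.6 CPM in Synpr-low neurons. Every Synpr-high level was above every Synpr-low level. The means were 914 ± 127 CPM and 112 ± 28.8 CPM (SD, n = 4 mice), an 8.17-fold ratio, and the log2 fold change was 3.03 (SE 0.19; edgeR adjusted p = 1.97e-05; 7.52e-52 to 0.00137 over the alternatives). Rgs12 was among the genes that the study picked on these same neurons, so this direction is not independent evidence.

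Nearly every Synpr-high neuron contained Rgs12. It had at least 1 count in 436 of 438 Synpr-high neurons (99.5%) and in 317 of 573 Synpr-low neurons (55.3%). After thinning each neuron to 20000 counts, which left out 84 shallower neurons, the share was 98.7% to 100% per mouse in Synpr-high and 30.0% to 70.9% in Synpr-low neurons. The median neuron had 858 CPM among Synpr-high and 7.29 CPM among Synpr-low neurons, of which 168 (29.3%) still reached 100 CPM. On each of the 12 plates with at least 5 neurons of both classes, Rgs12 was higher in the Synpr-high neurons, at 630 to 1093 CPM against 46.5 to 325 CPM.

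Rgs6, an R7 member that works in a complex with the G beta subunit Gnb5, was nearly absent from Synpr-high neurons. In Synpr-low neurons its level was 13.02 CPM in the mouse picked without labels and 14.8, 9.32 and 10.8 CPM in projection mice 1 to 3. In Synpr-high neurons it had 0 counts in 3 of the 4 mice, and 0.814 CPM in projection mouse 2. All 4 mice had the lower level in Synpr-high neurons and the groups did not overlap. Taking 3 counts per sum as the limit that a count of 0 allows, the Synpr-high level was at least 15.0-fold lower in the mouse picked without labels and at least 90.6-fold and 99.5-fold lower in projection mice 1 and 3, and it was 11.5-fold lower in projection mouse 2. The fitted log2 fold change was -5.86 (SE 1.10; edgeR adjusted p = 0.00786; 0.000193 to 0.0545 over the alternatives), and without projection mouse 1 it did not pass (edgeR adjusted p = 0.0545). In cells without a projection label only, Rgs6 had no test.

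The Rgs6 signal came from few neurons. It was 840 counts in 74 of 573 Synpr-low neurons (12.9%), and 10 counts in 3 of 438 Synpr-high neurons (0.685%). After thinning to 20000 counts the shares per mouse were 6.30% to 10.1% and 0% to 1.18%. The largest share of a Synpr-low sum from a single neuron was 34.7%, in the mouse picked without labels. On 11 of 12 plates Rgs6 was lower in the Synpr-high neurons, and on the remaining plate it was at 0 in both classes.

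Rgs7, the other R7 member, had its higher level in Synpr-low neurons of every mouse without passing. Its levels were 0.623, 1.41, 3.91 and 1.30 CPM in Synpr-high neurons, in the order used above, and 4.78, 5.68, 8.76 and 7.29 CPM in Synpr-low neurons. These levels did not overlap, and the log2 fold change was -1.83 (SE 0.55; edgeR adjusted p = 0.0714, with 0.0108 to 0.322 over the alternatives). With the mouse as a block it was -2.05 and passed (edgeR adjusted p = 0.0222). Rgs7 was found in 15 Synpr-high and 102 Synpr-low neurons, after thinning in 0% to 3.53% and 6.98% to 8.66% of them per mouse. Of the 74 Synpr-low neurons with Rgs6 and the 102 with Rgs7, 13 had both, 17.6% of the former and 12.7% of the latter. These shares were close to those over all 573 Synpr-low neurons, 17.8% with Rgs7 and 12.9% with Rgs6.

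Some partners of the R7 members fell in the same comparison. Of 5 genes (Gnb5, Rgs7bp, Rgs9bp, Gpr158 and Gpr179), 4 were tested, of which 2 were lower in Synpr-high neurons and none higher, with a median log2 fold change of -0.58. Gpr158, an orphan receptor that recruits R7 complexes to the membrane, fell from 25.5 ± 4.13 CPM in Synpr-low to 4.60 ± 0.879 CPM in Synpr-high neurons (SD, n = 4 mice; log2 fold change -2.48, SE 0.25; edgeR adjusted p = 0.00023). Gnb5, without which R7 proteins are unstable, fell from 219 ± 33.7 CPM to 131.5 ± 26.8 CPM (log2 fold change -0.74, SE 0.16; edgeR adjusted p = 0.0192), and did not pass without projection mouse 1, 2 or 3 (edgeR adjusted p = 0.145, 0.127 and 0.064).

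Rgs14 and Rgs17 had small differences that kept their direction in every mouse. Rgs14, an R12 member that binds Ras proteins and limits plasticity in hippocampal area CA2, was at 34.0, 21.8, 30.9 and 35.1 CPM in Synpr-high and 47.3, 41.6, 43.9 and 44.1 CPM in Synpr-low neurons, with no overlap. Its log2 fold change was -0.54 (SE 0.17; edgeR adjusted p = 0.0945, with 0.0127 to 0.267 over the alternatives). It was -0.56 with the mouse as a block, where it passed (edgeR adjusted p = 0.0408). Rgs17, an RZ member that acts on Gz and Gi subunits, was at 338, 253, 256 and 302 CPM in Synpr-high and 223, 158, 224 and 269 CPM in Synpr-low neurons, and the groups overlapped. Its log2 fold change was 0.39 (SE 0.17; edgeR adjusted p = 0.208, with 0.0332 to 0.731 over the alternatives). It was 0.41 with the block, where it passed (edgeR adjusted p = 0.0332). Rgs17 was the higher in Synpr-high neurons on all 12 plates, and Rgs14 the lower on 10 of 12.

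Rgs2, which preferentially restrains Gq signaling, had lower levels in Synpr-high neurons of the 3 projection mice and nearly equal levels in the mouse picked without labels. Synpr-high neurons had 124, 143, 171 and 168 CPM and Synpr-low neurons 123, 219, 294 and 317 CPM. The groups overlapped only through the Synpr-low level of the mouse picked without labels. The log2 fold change of -0.65 did not pass (SE 0.26; edgeR adjusted p = 0.17, with 0.0072 to 0.990 over the alternatives). It passed with the mouse as a block (log2 fold change -0.60; edgeR adjusted p = 0.0239) and without the mouse picked without labels (log2 fold change -0.79; edgeR adjusted p = 0.0105). In labelled cells only the difference also passed (log2 fold change -1.04, edgeR adjusted p = 0.0072). These 3 of 16 settings were the only ones in which it passed, and cells without a projection label only were not among them. On 5 of 12 plates the direction was the opposite, among them the unlabelled plates of projection mice 1 and 3. On the unlabelled plates, without TMM scaling, Synpr-high neurons of projection mice 1 to 3 had 178, 133 and 183 CPM. Synpr-low neurons there had 155, 223 and 140 CPM.

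Rgs10, a small R12 member, varied widely between mice. Its levels were 37.4, 33.5, 16.0 and 7.92 CPM in Synpr-high and 35.6, 4.60, 3.68 and 4.62 CPM in Synpr-low neurons, higher in Synpr-high neurons of 4 of 4 mice with overlapping groups. The log2 fold change was 1.04 (SE 0.78; edgeR adjusted p = 0.555, with 0.0259 to 0.970 over the alternatives). It was 2.15 without the mouse picked without labels, where it passed (edgeR adjusted p = 0.0259). Rgs10 was detected in 84 Synpr-high and 50 Synpr-low neurons (7.38% to 22.4% and 3.15% to 19.8% per mouse after thinning), and a single neuron held up to 47.7% of a sum. Rgs10 is abundant in microglia, and the 6 microglial markers summed to 0 to 9.14 CPM in Synpr-high and 0.142 to 1.49 CPM in Synpr-low neurons.

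The remaining R4 members did not pass. Rgs4, a brake on Gi and Gq signaling, was at 29.8 to 83.2 CPM in Synpr-high and 55.2 to 106 CPM in Synpr-low neurons (log2 fold change -0.36, 95% interval -1.06 to 0.34; edgeR adjusted p = 0.637). Rgs8, which speeds the closing of G protein-gated potassium channels, was at 33.3 to 50.8 CPM and 33.7 to 59.9 CPM (log2 fold change -0.18, 95% interval -0.64 to 0.28; edgeR adjusted p = 0.754). Both ranges overlapped. Rgs5, best known from the mural cells of blood vessels, had 25 counts in 2 Synpr-high neurons and 81 counts in 9 Synpr-low neurons, at most 2.10 CPM in any sum (log2 fold change -1.32, 95% interval -4.17 to 1.53; edgeR adjusted p = 0.683). The 5 mural cell markers summed to 0.266 to 4.01 CPM in the same sums.

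**Figure D1:**
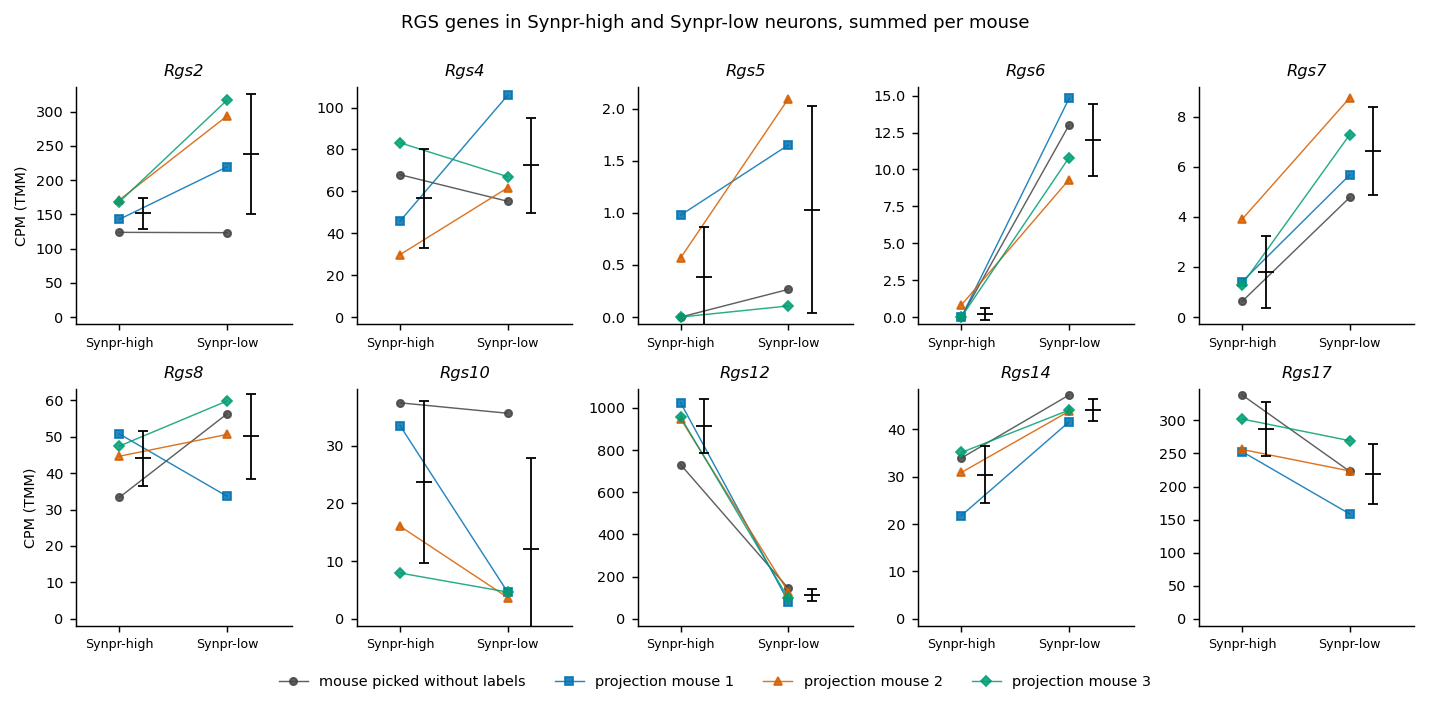
Level of each RGS gene in CPM (TMM-scaled; vertical axis, a separate linear scale per gene) in Synpr-high and Synpr-low neurons summed per mouse; symbols joined by a line are 1 mouse, and the black bar gives the mean with its SD over 4 mice, shown down to the axis. Rgs12 was at 731 to 1024 CPM in Synpr-high and at 80.3 to 144 CPM in Synpr-low neurons, and Rgs6 was at or near 0 in Synpr-high neurons of every mouse.

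**Figure D2:**
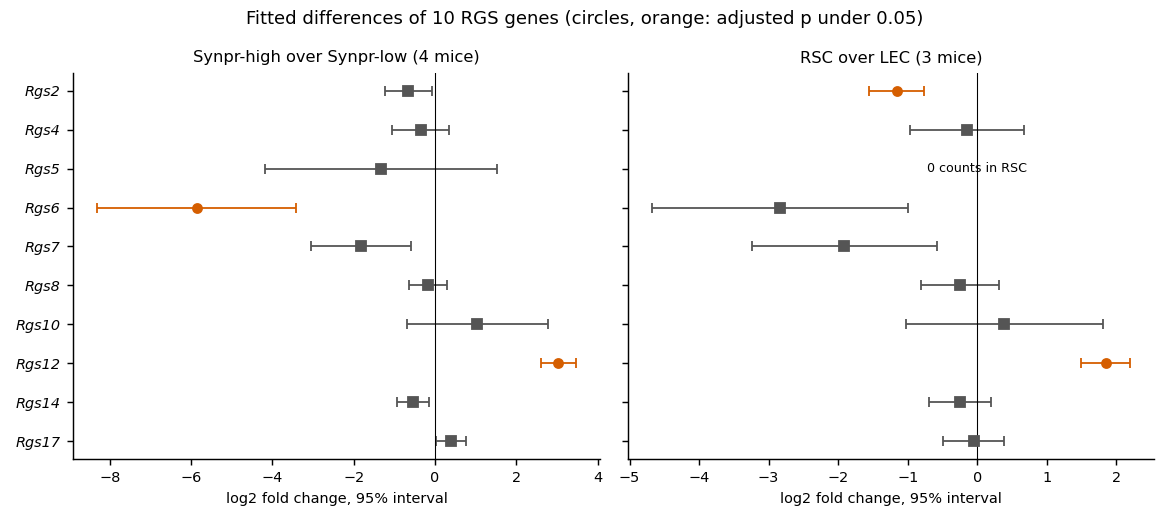
Log2 fold change of each RGS gene with its 95% interval (horizontal axis) for Synpr-high over Synpr-low neurons (left, 4 mice) and RSC-labelled over LEC-labelled neurons (right, 3 mice); circles passed at an adjusted p under 0.05 in edgeR's quasi-likelihood test and squares did not, and no value is drawn for Rgs5 on the right, where RSC-labelled neurons had 0 counts. Rgs12 and Rgs6 passed on the left, and Rgs12 and Rgs2 on the right.

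Across 20 sums of mouse, retrograde label and Synpr class, the genes whose level followed Rgs12 most closely were Nr2f2 (Pearson r = 0.972) and 1500009L16Rik (r = 0.970), among 15298 genes on the log2 CPM scale. Those that followed Rgs6 were Syt13 (r = 0.931) and Nos1ap (r = 0.924). These values are descriptions, since the sums share mice, plates and the Synpr split.

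The next comparison asked whether the members differ by the area a neuron projects to. Each label of a projection mouse had its own plate, apart from a single plate of projection mouse 3 with 44 LEC-labelled and 34 RSC-labelled neurons, so outside that plate the label and the plate cannot be told apart. RSC-labelled neurons had more Rgs12 and less Rgs2 than LEC-labelled neurons, and these 2 of 10 members passed, beside 3.95% of 13976 genes tested. The core claustrum markers moved with this comparison, at 4062 to 4585 CPM in RSC-labelled and 1161 to 1622 CPM in LEC-labelled sums, and so did the Synpr class, since 213 of 247 RSC-labelled and 45 of 286 LEC-labelled neurons were Synpr-high. Inhibitory neuron markers moved with it too. The 5 genes summed to 133, 6.92 and 200.2 CPM in RSC-labelled sums of projection mice 1 to 3 and to 0.162 to 0.887 CPM in LEC-labelled ones, where Gad1, Gad2 and Sst were at 0. Of these markers 4 were tested and 1 passed, Sst, the gene of the peptide somatostatin, named after its values were seen, at 101, 6.78 and 140 CPM against 0 in every LEC-labelled sum (edgeR adjusted p = 0.0219), but not with the mouse as a block or without projection mouse 1 or 3 (edgeR adjusted p = 0.0509, 0.0897 and 0.154). The part of these markers in the results for the members was not tested.

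Rgs12 was at 986, 816 and 923 CPM in RSC-labelled neurons of projection mice 1 to 3, at 309, 222 and 226 CPM in LEC-labelled neurons, and at 326, 433 and 455 CPM in unlabelled neurons. RSC-labelled levels were above all others, and unlabelled levels were above LEC-labelled ones in every mouse. The means were 908 ± 86.0 CPM, 252 ± 48.9 CPM and 405 ± 69.1 CPM (SD, n = 3 mice). The log2 fold change of RSC-labelled over LEC-labelled neurons was 1.85 (SE 0.16; edgeR adjusted p = 0.000609; 4.05e-31 to 0.0271 over the alternatives). Rgs12 also passed for RSC-labelled over unlabelled neurons (log2 fold change 1.16, SE 0.16; edgeR adjusted p = 0.0106), beside 1.63% of all genes, but not without projection mouse 2 or 3 (edgeR adjusted p = 0.100 and 0.0812).

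Rgs2 was at 129, 170 and 156 CPM in RSC-labelled neurons, 253, 368 and 396 CPM in LEC-labelled neurons, and 159, 195 and 155 CPM in unlabelled neurons. LEC-labelled levels stood above the other groups with no overlap, whereas RSC-labelled and unlabelled levels overlapped. The log2 fold change of RSC-labelled over LEC-labelled neurons was -1.16 (SE 0.18; edgeR adjusted p = 0.00523; 4.88e-09 to 0.132 over the alternatives), and it did not pass without projection mouse 2 or 3 (edgeR adjusted p = 0.0785 and 0.132).

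For LEC-labelled against unlabelled neurons, edgeR called none of the 13976 genes and so none of the members, with 1079 genes and 3 members at an unadjusted p under 0.05 and 114 genes and 2 members called by DESeq2. Those 3 members were Rgs2 (log2 fold change 0.997, SE 0.178; edgeR adjusted p = 0.246), Rgs12 (-0.68, SE 0.16; edgeR adjusted p = 0.288) and Rgs4 (-0.85, SE 0.37; edgeR adjusted p = 0.632). This comparison shares its unlabelled sums with the one before, and its LEC-labelled sums with the comparison of labels.

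The mixed plate gave the label difference without a change of plate. There Rgs12 was at 831 CPM in RSC-labelled and 383 CPM in LEC-labelled neurons (exact Poisson 95% intervals 810 to 852 and 370 to 396 CPM), and Rgs2 at 152 and 458 CPM (143 to 161 and 444 to 473 CPM). Both had the direction of the comparison over mice. These intervals cover counting error only, PCR copies are not independent molecules, and with 1 sum per label no test was possible. Without this plate Rgs12 and Rgs2 were still the only members that passed.

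The R7 members had lower levels in RSC-labelled neurons without passing. Rgs6 was at 1.62, 1.73 and 1.23 CPM in RSC-labelled and 7.71, 15.2 and 9.73 CPM in LEC-labelled neurons of projection mice 1 to 3, and Rgs7 at 2.24, 1.87 and 1.84 CPM and 2.93, 11.6 and 7.92 CPM. Neither pair of groups overlapped, which with 3 mice per group is a description and not a test. The log2 fold changes were -2.84 (SE 0.84; edgeR adjusted p = 0.0964) and -1.91 (SE 0.60; edgeR adjusted p = 0.12). On the mixed plate Rgs6 went the other way, with 24 counts in 3 RSC-labelled neurons and 0 in 44 LEC-labelled neurons. Rgs5 had 72 counts in 7 of 286 LEC-labelled neurons and was seen in 0 of 247 RSC-labelled ones, which allows a share of up to 1.21% with a count by counting error over neurons alone, not over mice, and it did not pass (edgeR adjusted p = 0.127).

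The other 5 members did not pass either, with ranges that overlapped. Between RSC-labelled and LEC-labelled neurons the log2 fold change was -0.15 for Rgs4 (95% interval -0.97 to 0.67), -0.25 for Rgs8 (-0.81 to 0.31), 0.39 for Rgs10 (-1.03 to 1.81), -0.25 for Rgs14 (-0.70 to 0.20) and -0.05 for Rgs17 (-0.49 to 0.38). Rgs4 and Rgs14 had their highest means in unlabelled neurons, Rgs4 at 155, 70.5 and 83.3 CPM against 31.9 to 61.8 CPM in RSC-labelled and 40.3 to 85.8 CPM in LEC-labelled neurons, and Rgs14 at 42.2, 49.9 and 43.0 CPM against 25.4 to 38.2 CPM and 32.7 to 40.9 CPM. Neither passed against RSC-labelled neurons (edgeR adjusted p = 0.262 and 0.253) or LEC-labelled ones (edgeR adjusted p = 0.632 and 0.811). Layer 6 markers were higher in unlabelled sums too, at 146 to 483 CPM against 16.9 to 56.5 CPM in labelled sums. The part of these markers in the levels of Rgs4 and Rgs14 was not tested.

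**Figure D3:**
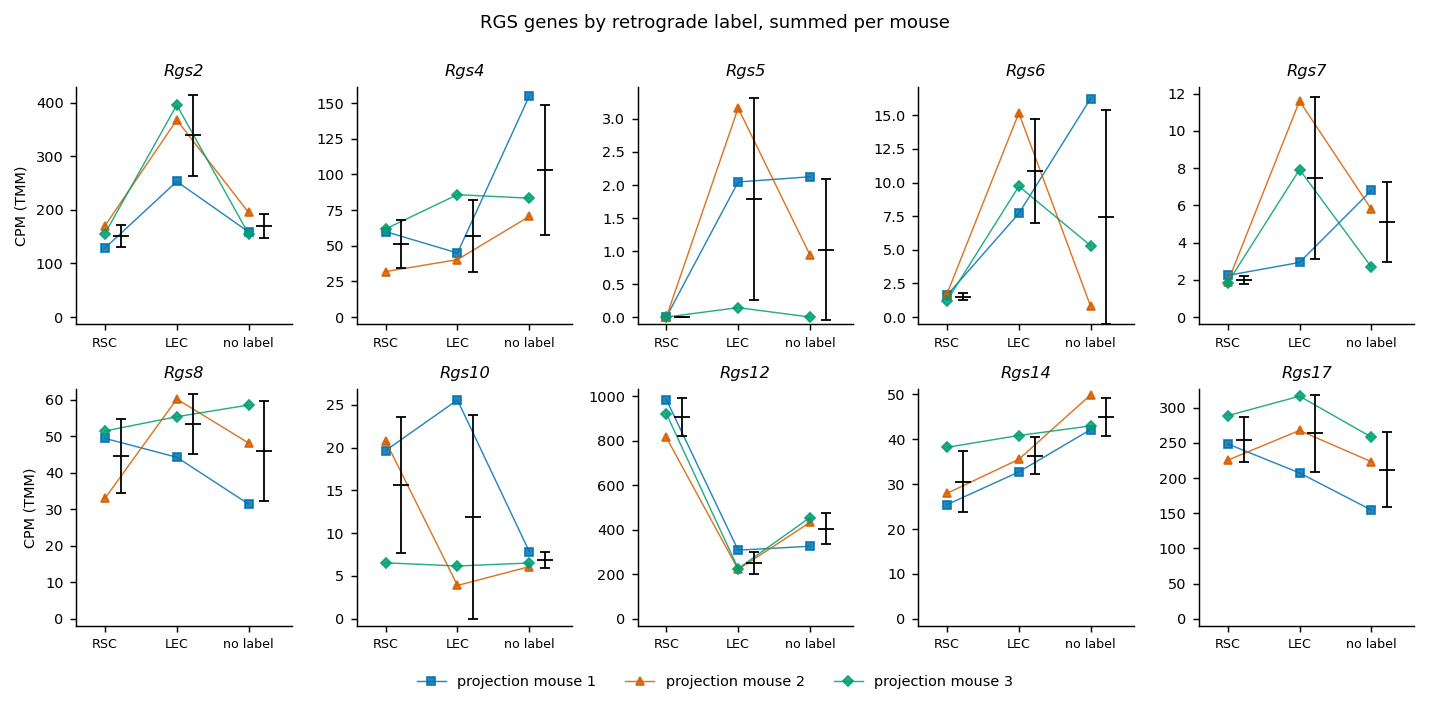
Level of each RGS gene (CPM, TMM-scaled; vertical axis, a separate linear scale per gene) in RSC-labelled, LEC-labelled and unlabelled neurons of the 3 projection mice; symbols joined by a line are 1 mouse, and the black bar gives the mean with its SD, shown down to the axis. Rgs12 was highest in RSC-labelled neurons, at 816 to 986 CPM, and Rgs2 in LEC-labelled neurons, at 253 to 396 CPM.

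Since most RSC-labelled neurons were Synpr-high and most LEC-labelled neurons Synpr-low, the labels were also compared within each class. Among Synpr-high neurons, Rgs12 was at 1093, 938 and 963 CPM in RSC-labelled and 880, 897 and 1112 CPM in LEC-labelled neurons of projection mice 1 to 3. These levels overlapped, with a log2 fold change of 0.05 and a 95% interval of -0.41 to 0.51. No gene of 12409 and no member passed there in edgeR, with 508 genes and 3 members (Rgs2, Rgs5 and Rgs7) at an unadjusted p under 0.05 and 16 genes and 0 members called by DESeq2. The LEC-labelled Synpr-high sums held only 11 to 18 neurons.

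Among Synpr-low neurons the Rgs12 levels stood apart. RSC-labelled neurons had 268, 322 and 157 CPM and LEC-labelled neurons 58.6, 78.1 and 58.3 CPM, with no overlap. The log2 fold change was 1.94 (SE 0.22; edgeR adjusted p = 0.00261), and Rgs12 was the only member that passed, beside 0.193% of all genes. The RSC-labelled sums held 8 to 14 neurons each, and without projection mouse 1 or 2 the difference did not pass (edgeR adjusted p = 0.166 and 0.156). Of 34 RSC-labelled Synpr-low neurons, 17 reached 100 CPM of Rgs12, against 40 of 241 LEC-labelled ones. The core claustrum markers moved with Rgs12 here, at 939.8 to 1962 CPM in RSC-labelled and 230.0 to 506 CPM in LEC-labelled Synpr-low sums, and 3 of the 5 passed, Gnb4, Lxn and Gfra1 (log2 fold changes 1.58, 2.41 and 3.85; edgeR adjusted p = 0.0308, 0.0231 and 0.0018). The 17 RSC-labelled neurons that reached 100 CPM of Rgs12 had medians of 598 CPM of Gnb4 and 811 CPM of Lxn. The other 17 had 36.0 and 4.87 CPM. For the shell markers Slc30a3 and Nnat the medians were 230 and 254 CPM in the former and 14.8 and 576 CPM in the latter. The 40 LEC-labelled neurons that reached 100 CPM had 121 CPM of Gnb4 and 88.6 CPM of Lxn. The other 201 had 29.7 and 6.20 CPM. Slc30a3 was at 253 and 204 CPM in these LEC-labelled groups, and Nnat at 1217 and 1113 CPM. All these medians are over neurons and not over mice. Oligodendrocyte markers summed to 46.8 to 5971 CPM in RSC-labelled and 114 to 240 CPM in LEC-labelled Synpr-low sums. Endothelial markers summed to 0 to 13.4 CPM and 0.0559 to 0.0976 CPM. The part of all these markers in the result was not tested.

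The difference between the classes was itself tested. For Rgs12, the label difference in Synpr-high less that in Synpr-low neurons was -1.89 on the log2 scale (SE 0.31; edgeR adjusted p = 0.0462), and 0.0645% of all genes passed. With the mouse as a block it did not pass (log2 difference -1.88; edgeR adjusted p = 0.0838), nor without projection mouse 1, 2 or 3 (edgeR adjusted p = 0.500, 0.493 and 0.294). The core claustrum markers had the same sign of difference, with a median of -2.67 over the 5 genes, beside 0.08 over all genes tested, and only Gfra1 passed (-3.90; edgeR adjusted p = 0.0332). Their sums in Synpr-high neurons were 4528 to 4754 CPM with the RSC label and 4792 to 5280 CPM with the LEC label. Oligodendrocyte markers summed to 35.2 to 181 CPM and 21.4 to 908 CPM there, and their part in the difference was not tested.

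Rgs2 was lower in RSC-labelled neurons in both classes without passing in either. Synpr-high neurons had 117, 179 and 151 CPM with the RSC label and 199, 229 and 260 CPM with the LEC label, and Synpr-low neurons 218, 129 and 219 CPM and 273, 394 and 418 CPM. Neither pair overlapped, and 3 of 3 mice had the lower level with the RSC label in both classes. The log2 fold changes were -0.62 (SE 0.24; edgeR adjusted p = 1) and -0.94 (SE 0.24; edgeR adjusted p = 0.168), and their difference was 0.32 (95% interval -0.41 to 1.04; edgeR adjusted p = 0.92).

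**Figure D4:**
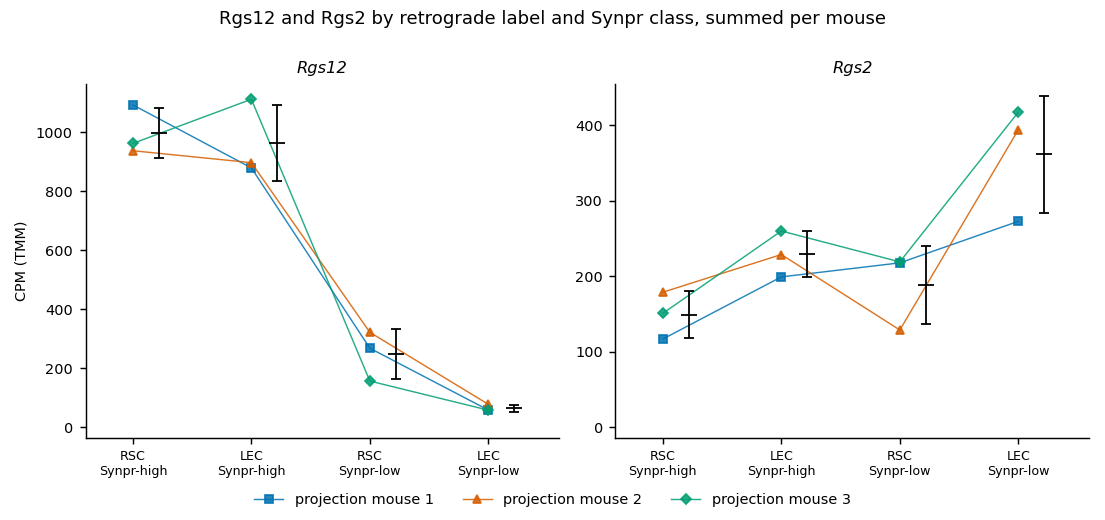
Levels of Rgs12 (left) and Rgs2 (right) in CPM (TMM-scaled, linear axes) in the 4 groups of retrograde label and Synpr class of the 3 projection mice; symbols joined by a line are 1 mouse, and the black bar gives the mean with its SD. Rgs12 was at 880 to 1112 CPM in Synpr-high groups and, within Synpr-low neurons, at 157 to 322 CPM with the RSC label and 58.3 to 78.1 CPM with the LEC label, while Rgs2 was highest in LEC-labelled Synpr-low neurons at 273 to 418 CPM.

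Synpr-low neurons were not uniform, since 159 of them had at least 100 CPM summed over the layer 6 genes Ctgf, Sla, Foxp2, Rprm, Fezf2, Tle4 and Syt6, and 414 did not. Set against the 414 alone, Synpr-high neurons still had more Rgs12 (log2 fold change 2.79, SE 0.56; edgeR adjusted p = 0.00855) and less Rgs6 (-5.88, SE 1.26; edgeR adjusted p = 0.0122). These were 2 of 9 members tested, beside 5.72% of 13027 genes, as Rgs5 was too low to be tested. Without projection mouse 1 or 3 neither passed (edgeR adjusted p = 0.0577 and 0.122 for Rgs12, and 0.093 and 0.0838 for Rgs6).

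Between the Synpr-low neurons with and without layer 6 genes no member passed, against 1.68% of all genes, with 1687 of 13027 genes and 3 of 9 members at an unadjusted p under 0.05 and 564 genes and 0 members called by DESeq2. Rgs12 was at 128, 13.7, 11.6 and 53.6 CPM in those with layer 6 genes, the mouse picked without labels first, and 151, 112, 162 and 108 CPM in those without. It was lower with layer 6 genes in 4 of 4 mice (log2 fold change -1.44, SE 0.55; edgeR adjusted p = 0.274, with 0.0392 to 0.675 over the alternatives). It passed without the mouse picked without labels (log2 fold change -2.27; edgeR adjusted p = 0.0392).

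Rgs2 and Rgs4 went in opposite directions. Rgs2 was at 34.1, 112, 126 and 256 CPM with layer 6 genes and 166, 272, 346 and 334 CPM without, lower in 4 of 4 mice (log2 fold change -1.07, SE 0.41; edgeR adjusted p = 0.273, with 0.00696 to 0.665 over the alternatives). It passed with the mouse as a block (log2 fold change -1.20; edgeR adjusted p = 0.0353), where 3.1% of all genes did. Rgs4 was at 35.7, 230, 79.9 and 110 CPM with layer 6 genes and 64.6, 51.1, 57.3 and 56.2 CPM without, higher in the 3 projection mice and lower in the mouse picked without labels (log2 fold change 1.01, SE 0.43; edgeR adjusted p = 0.33). Rgs14 was at 46.3, 44.4, 30.7 and 31.7 CPM with layer 6 genes and 47.6, 41.0, 48.3 and 47.5 CPM without. It was higher with them in projection mouse 1 and lower in the others (log2 fold change -0.28, SE 0.21, edgeR adjusted p = 0.689).

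For Rgs10 the mice stood far apart. Among neurons with layer 6 genes it was at 85.2 CPM in the mouse picked without labels, from 15 of 35 neurons, and at 10.2, 8.62 and 0 CPM in the projection mice, from 6 of 50, 4 of 31 and 0 of 43 neurons. Neurons without layer 6 genes had 11.4, 2.13, 2.31 and 5.83 CPM (log2 fold change 2.26, SE 1.13; edgeR adjusted p = 0.437).

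**Figure D5:**
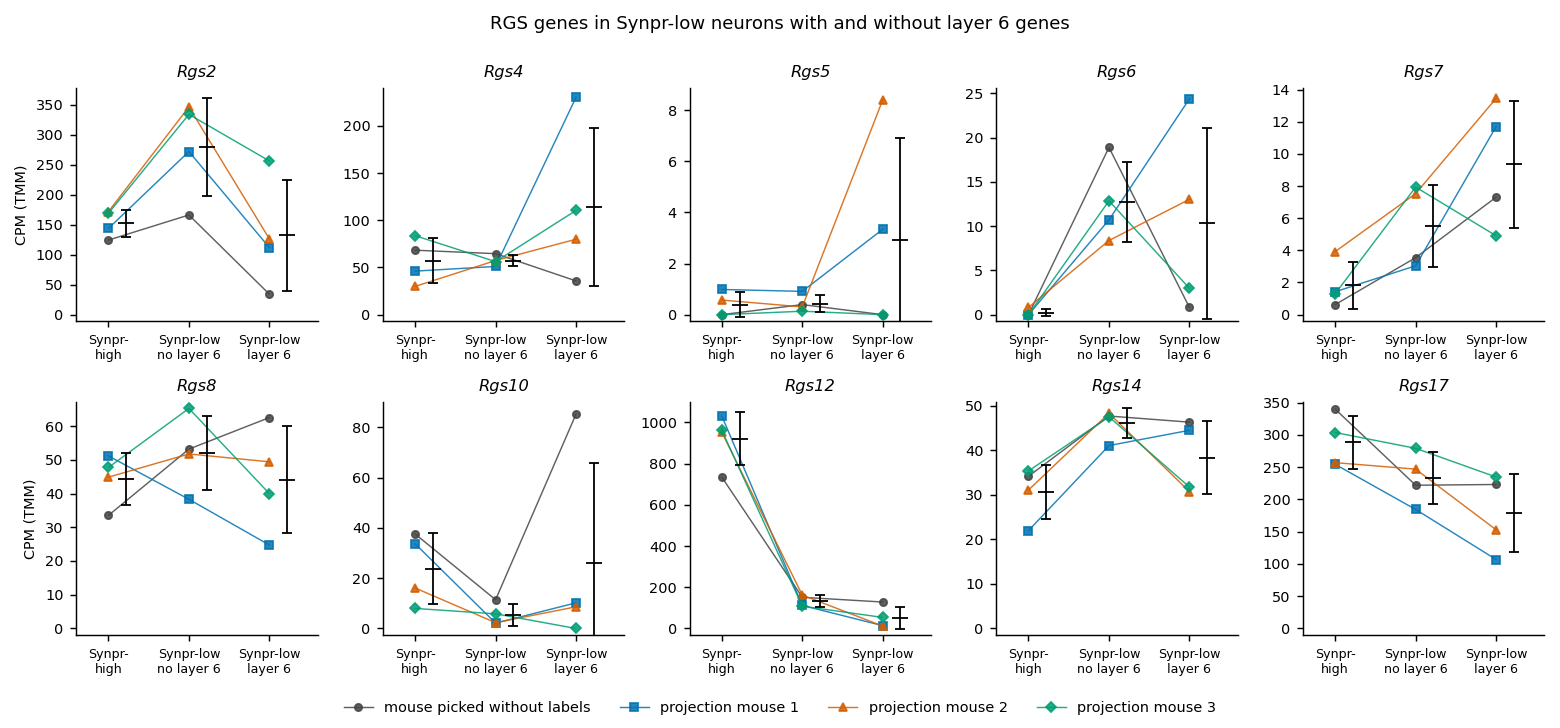
Level of each RGS gene (CPM, TMM-scaled; vertical axis, a separate linear scale per gene) in Synpr-high neurons and in Synpr-low neurons without and with layer 6 genes, summed per mouse; symbols joined by a line are 1 mouse, and the black bar gives the mean with its SD over 4 mice, shown down to the axis. Rgs12 was at 734 CPM or more in Synpr-high neurons and at 162 CPM or less in both other classes, and Rgs10 with layer 6 genes was highest in the mouse picked without labels.

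The genes that RGS proteins act on were looked at in the same fits. Of 13 G alpha subunits, 11 were tested, of which 3 were higher and none lower in Synpr-high neurons, with a median log2 fold change of 0.17. Gnao1, the abundant Go alpha subunit of neurons and a substrate of most of these RGS proteins, was at 1732 ± 19.5 CPM in Synpr-high and 591 ± 45.7 CPM in Synpr-low neurons (SD, n = 4 mice; log2 fold change 1.55, SE 0.08; edgeR adjusted p = 3.44e-06). Gnai1 and Gnas were higher by 0.54 and 0.39 on the log2 scale (edgeR adjusted p = 0.0126 and 0.0345), but neither passed without projection mouse 1, 2 or 3 (edgeR adjusted p = 0.0727 to 0.0882 and 0.0975 to 0.177) or in cells without a projection label alone (edgeR adjusted p = 0.253 and 0.207), nor Gnas in limma (adjusted p = 0.0841). Of 7 effectors tested, Plcb1, the phospholipase that Gq activates, was higher (log2 fold change 0.85, SE 0.11; edgeR adjusted p = 0.000854), though not in cells without a projection label alone (edgeR adjusted p = 0.102).

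The other RGS genes and related proteins gave few calls, and their median log2 fold changes were -0.21 for other RGS genes, 0.08 for effectors, -0.14 for RGS-homology proteins and -0.81 for the GoLoco genes. Of 11 other RGS genes, 6 were tested and only Rgs13 passed, at 0.974 ± 0.659 CPM in Synpr-high and 11.8 ± 7.25 CPM in Synpr-low neurons (SD, n = 4 mice; log2 fold change -3.46; edgeR adjusted p = 0.00485). Of 14 proteins with an RGS-homology domain, the receptor kinase gene Adrbk2 was lower (-1.08; edgeR adjusted p = 0.00134) and the sorting nexin gene Snx25 higher (1.84; edgeR adjusted p = 0.00778), and of 3 tested genes with a GoLoco motif, Rap1gap was lower (-0.81; edgeR adjusted p = 0.0105). Between RSC-labelled and LEC-labelled neurons the genes of these lists that passed were Rgs20 (log2 fold change 1.56; edgeR adjusted p = 0.0291), Gnao1 (0.99; edgeR adjusted p = 0.000624), Plcb1 (0.88; edgeR adjusted p = 0.00183), Snx25 (2.18; edgeR adjusted p = 0.0142) and Adrbk2 (-1.08; edgeR adjusted p = 0.0155), and no R7 partner did. Some of these calls were lost when a mouse was left out. In the Synpr comparison Rgs13 did not pass without projection mouse 1 (edgeR adjusted p = 0.055), nor Snx25 and Rap1gap without projection mouse 2 (edgeR adjusted p = 0.0749 and 0.0908) or Rap1gap in labelled cells only (edgeR adjusted p = 0.113). Between the labels Rgs20 and Adrbk2 did not pass when any mouse was left out (edgeR adjusted p = 0.059 to 0.217 and 0.0734 to 0.176), Snx25 without projection mouse 2 or 3 (edgeR adjusted p = 0.175 and 0.173), or Plcb1 without projection mouse 3 (edgeR adjusted p = 0.064), while Gnao1 passed in every alternative of both comparisons. The medians of this comparison were -0.25 for the members, -0.02 for other RGS genes, -0.44 for R7 partners, 0.12 for G alpha subunits, 0.70 for effectors, 0.07 for RGS-homology proteins and -0.31 for GoLoco genes, beside -0.00125 over all genes tested.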

How the data were processed

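The authors deposited 2 tables of raw counts per gene and cell, not normalized, for 256 and 856 cells, with the mouse, plate and retrograde label of each cell. Per the study's methods, STAR aligned the reads after each had been given its cell barcode and UMI. The submitters' notes name the build NCBIM37 and Seurat. The version of STAR, the annotation and the use of strand are not given in the sources used here. Totals per cell match the scale the methods give for reads, so intervals cover counting error only. Spike-ins were left out.

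Of 1112 cells, 27 without a Snap25 count and 74 more without a Slc17a7 count were removed. Counts were summed per mouse and group (at least 5 cells; 1106396 to 27601436 counts per sum) and tested with edgeR 4.0.16 (filterByExpr, TMM, quasi-likelihood F test, Benjamini-Hochberg, threshold 0.05), after tests on simulated data. Synpr, and the 7 layer 6 genes where they defined groups, were not tested. Alternatives were DESeq2 1.42.0, relative log size factors, no filter, limma 3.58.1 on mean log2(CPM + 1) over cells, cells thinned to 20000 counts, other limits for Synpr and layer 6 genes, subsets of cells, the mouse as a block, leaving out each mouse, and, added after the data were seen, leaving out the mixed plate and values within plates. The animal pairs the groups, since each mouse gave a sum to every group of a fit. Deviations from the group means correlated at 0.138 to 0.503 between the 4 pairs of Synpr sums of a mouse and at -0.020 to 0.088 between label sums.

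The members and lists were chosen with earlier results of these data known. All 10 members are named, with every gene of the lists of related signaling genes that passed in the Synpr or RSC against LEC comparison (at most 4 per list), and the 2 genes most correlated with each member that passed in the Synpr comparison. In GENCODE M21, exons of Rgs6, Rgs8 and Rgs12 overlap antisense genes, whose reads could not be told apart without strand. Python 3.11.15 and R 4.3.3 were used.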

Additional observations from a re-analysis of the deposited data

Results flagged for a closer look

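In groups of 4 mice, 40 sets of member levels were searched for a mouse far from the others, and 4 were marked, where chance marks about 1 in 20. The sets share neurons, so the marks are not independent of each other. Rgs10 in Synpr-low neurons was at 35.6 CPM in the mouse picked without labels and at 3.68 to 4.62 CPM in the others, and in Synpr-low neurons with layer 6 genes at 85.2 CPM against 0 to 10.2 CPM. The neurons with layer 6 genes gave 105 of the 134 Rgs10 counts of that mouse's Synpr-low sum, so both marks rest largely on the same counts. Rgs6 in Synpr-high neurons was at 0.814 CPM in projection mouse 2, from 10 counts, and at 0 in the others. With 0 in the others any level above 0 would have been marked, so the rate of 1 in 20 does not apply to it. Rgs14 in Synpr-low neurons without layer 6 genes was at 41.0 CPM in projection mouse 1 and at 47.5 to 48.3 CPM in the others. The label difference of Rgs12 differed between Synpr-high and Synpr-low neurons by -1.89 on the log2 scale, by the test of the difference itself (edgeR adjusted p = 0.0462), a call lost in 7 of 12 alternatives: with the mouse as a block (edgeR adjusted p = 0.0838), in limma (adjusted p = 0.655), at Synpr limits of 100 and 400 CPM (edgeR adjusted p = 0.0755 and 0.120) and without any 1 mouse (edgeR adjusted p = 0.294 to 0.500).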

How the results depend on the processing

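For Synpr-high against Synpr-low neurons, 2 members passed in the main test, 4 with DESeq2, 4 with cells thinned to 20000 counts, 4 with labelled cells only, 5 with limma on mean log2(CPM + 1), 1 with cells without a projection label only, 1 to 4 when a mouse was left out, and 6 with the mouse as a block. Rgs6 had no test in cells without a projection label only. For RSC-labelled against LEC-labelled neurons it was 2 in the main test, 5 with DESeq2, 5 with limma and 1 to 2 when a mouse was left out. For RSC-labelled against unlabelled neurons it was 1, with 4 in limma and 0 to 1 when a mouse was left out, and for LEC-labelled against unlabelled neurons 0, with 2 in DESeq2, limma and thinned cells and 1 with no filter on low counts. Within Synpr-low neurons it was 1, with 2 in DESeq2 and thinned cells and 0 to 1 when a mouse was left out. The test of the difference between classes gave 1, and 0 with the mouse as a block, with limma, at Synpr limits of 100 and 400 CPM and without any 1 mouse. Against Synpr-low neurons without layer 6 genes it was 2, with 3 in thinned cells, where Rgs14 also passed (log2 fold change -0.96; edgeR adjusted p = 0.0244), and 0 to 2 when a mouse was left out. Between the Synpr-low classes it was 0, with 1 for the block, limma, a layer 6 limit of 200 CPM and 0 to 1 when a mouse was left out. The block changed no other call of a member than those given beside the results. Over all genes DESeq2 called 1798 in the Synpr comparison, where the block called 1993. DESeq2 called 1145 for RSC against LEC, 663 for RSC and 114 for LEC against unlabelled, and 287 within Synpr-low neurons. For the remaining settings the counts over all genes are given below as ranges only. The member counts of those settings therefore have no matching share beside them.

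Over 87 results of single members in 9 comparisons, alternatives with a test gave 1060 values, of which 952 kept direction and side of the threshold, 38 passed only under the alternative, 18 no longer passed and 52 changed direction or fell to 0. Those 52 passed in neither test. Among values given above, Rgs8 was 0.063 in labelled cells only for the Synpr comparison. Between labels, leaving out a mouse gave ranges of -0.42 to 0.12 for Rgs4, -0.44 to 0.017 for Rgs8, -0.28 to 1.43 for Rgs10 and -0.18 to 0.035 for Rgs17, and limma gave 0.15 for Rgs17. Within Synpr-high neurons Rgs12 ranged from -0.079 to 0.20 without a mouse and was -0.18 in limma, and the difference between classes for Rgs2 ranged from -0.096 to 0.66 without a mouse. The cause was not tested. Counts over all genes ran from 544 to 1993 (main, 1202) for the Synpr comparison, 59 to 1197 (552) for RSC against LEC, 8 to 882 (228) for RSC and 0 to 160 (0) for LEC against unlabelled, 0 to 16 (0) and 0 to 287 (24) within Synpr-high and Synpr-low neurons, 0 to 112 (8) for their difference, 282 to 1229 (745) without layer 6 neurons and 46 to 564 (219) between Synpr-low classes. Label sums of 8 to 18 neurons and members with few counts, Rgs5, Rgs6, Rgs7 and Rgs10, limit what could be detected, and fewer neurons with a transcript cannot be told apart from less of it per neuron in these sums.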
